A study of Homo sapiens with 12 samples.

Results

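The small leucine-rich proteoglycans BGN, DCN, LUM, FMOD, PRELP, OGN and ASPN and the galectins LGALS1 and LGALS3 were followed through 12 arrays of 2 Ewing sarcoma cell lines, SK-N-MC and RDES. These 9 of 33458 measured genes were taken by symbol, each at its brightest probe set, and they were chosen by earlier results of these same data. The measured values that chose them, the signal difference between the lines, the place of the control arrays and the differences with doxycycline, are therefore given as descriptions. Where a fit across all genes used those contrasts, the number of members called stands beside the share of all genes called, and nothing is read from it. Each of the 9 genes had 1 probe set.

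The study asked what follows when PRC1, which cross-links spindle microtubules during cell division, is silenced in Ewing sarcoma cells. Both lines had been transduced with a lentiviral pLKO-TET-ON vector for a doxycycline (Dox)-inducible short hairpin and selected with puromycin, and all 12 arrays, controls included, come from such cells. The hairpins were a non-targeting control (shCtrl), one against the coding sequence of PRC1 (shCDS) and one against its 3' untranslated region (shUTR). Each of the 6 derivative lines was measured without Dox, Dox (-), and after 60 h with 1 µg/ml Dox, Dox (+), on 1 array each. There were no replicate arrays of a condition, so spreads below are between derivative lines and Dox states of one cell line, here called the 4 shPRC1 arrays of that line.

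Small leucine-rich proteoglycans are secreted proteins of the extracellular matrix whose leucine-rich core binds collagen and growth factors such as TGF-beta, and most carry chondroitin, dermatan or keratan sulfate chains. They are made mainly by fibroblasts, cartilage and bone cells. Galectins are lectins that bind beta-galactosides on glycoproteins, inside and outside the cell, and galectin-1 and galectin-3 are the most studied members in tumours.

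The hairpins set the conditions that are compared, so the antisense arm of each is shown 5′ to 3′, with the seed, bases 2 to 8, in capitals.
shCtrl: tTGGTGCTcttcatcttgttg
shPRC1_CDS: aAATGCCTttgaatgttcctg
shPRC1_UTR: tATGTGGTagagaagtcaggc
The 3 seeds differ from each other, so the PRC1 hairpins share a target and no seed.

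The log2 signal of PRC1 itself, Dox (-) first, was 15.56 and 11.55 for SK-N-MC shCDS, 15.59 and 12.66 for SK-N-MC shUTR, 14.50 and 10.54 for RDES shCDS and 14.75 and 13.29 for RDES shUTR. This left 6.18%, 13.1%, 6.42% and 36.2% of the Dox (-) signal, against 92.4% and 97.6% in the shCtrl pairs. Ewing sarcoma markers were at 6.5 or more in both lines, 8 of 8 on the array, where 6.5 is the log2 level the study took as expressed. The 2 arrays labelled RDES shCtrl went against their label, and the SK-N-MC shCtrl arrays lay near SK-N-MC but shifted toward RDES. Over the 859 genes at least 2 log2 units apart between the lines, with SK-N-MC shPRC1 set to 0 and RDES shPRC1 to 1, the 2 arrays labelled RDES shCtrl had a median place of 0.014 and 0.018, and the SK-N-MC shCtrl arrays of 0.163 and 0.147. STAG2, a cohesin subunit, had a mean of 5.99 over the SK-N-MC and of 13.92 over the RDES shPRC1 arrays, and was at 6.10 and 6.01 on the arrays labelled RDES shCtrl but at 9.15 and 9.32 on the SK-N-MC shCtrl arrays. The line comparison below uses the 8 shPRC1 arrays only, and the differences with Dox are given with and without subtraction of the shCtrl pairs.

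**Figure D1:**
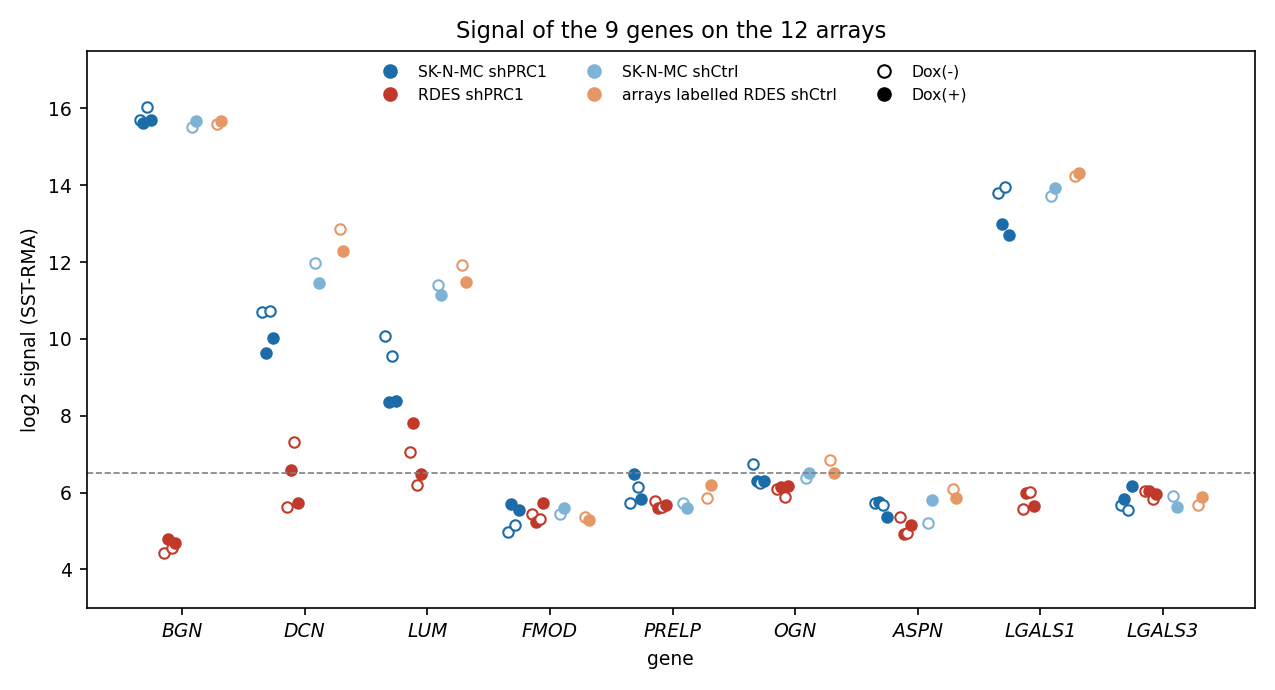
Log2 signal (y axis) of each of the 9 genes (x axis) on the 12 arrays, 1 point per array, coloured by cell line and hairpin and open for Dox (-). The dashed line is 6.5. BGN and LGALS1 lie high on all SK-N-MC arrays and on the arrays labelled RDES shCtrl and low on the 4 RDES shPRC1 arrays, and the 5 genes that did not pass the filter lie between 4.91 and 6.85 everywhere.

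BGN, which encodes biglycan, a collagen- and TGF-beta-binding proteoglycan of bone and connective tissue, lies on chromosome X at 153494980 to 153509546 (GRCh38). Its log2 signal was 15.71 and 15.61 in SK-N-MC shCDS, Dox (-) and Dox (+), and 16.04 and 15.70 in SK-N-MC shUTR. In RDES it was 4.42 and 4.78 with shCDS and 4.55 and 4.68 with shUTR. All 4 SK-N-MC arrays lay above all 4 RDES arrays, by 10.83 log2 units at the nearest. The means were 15.77 ± 0.19 and 4.61 ± 0.16 (SD, n = 4 arrays each), a difference of 11.16. As RDES lay below the level taken as expressed, the signal was at least 615-fold higher in SK-N-MC against that level, with each RDES array raised to 6.5. With every array below 6.5 raised to 6.5, for all genes alike, BGN had an excess of 9.27 log2 units and ranked 1 of 15194 genes by the excess of SK-N-MC over RDES.

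The 30 bases before the BGN start (chrX:153494950-153494979, plus strand, RefSeq, GRCh38.p14) are shown because this gene ranked 1 by the excess of SK-N-MC over RDES.
BGN: tttagcctcccgcccgccgcctctgtctcc
The letters are all in lower case because neither motif searched was found in them. GGAAGGAA, a pair of the GGAA repeat units that the Ewing sarcoma fusion proteins bind, was looked for on both strands of the 300 bases around each start and occurred in 3.58% of 27305 promoters and in 0 of the 6 member promoters in the table (BGN, FMOD, PRELP, OGN, ASPN and LGALS3). TATAAA occurred in 12.0% of promoters and in 2 of these 6, FMOD and OGN. The BGN window held 19 CG dinucleotides, that of LGALS3 39 and that of OGN 0, with a median of 14 over all promoters. DCN, LUM and LGALS1 are named only.

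LGALS1 (chromosome 22, 37675636 to 37679802) encodes galectin-1, a secreted and cytosolic lectin. Its signal was 13.79 and 12.98 in SK-N-MC shCDS, Dox (-) and Dox (+), and 13.96 and 12.69 in SK-N-MC shUTR. In RDES the values were 5.56 and 5.99 with shCDS and 6.01 and 5.64 with shUTR. The lines did not overlap, with 6.68 log2 units between the nearest arrays. The means were 13.36 ± 0.62 and 5.80 ± 0.23 (SD, n = 4 arrays each), a difference of 7.56 and at least 116-fold against 6.5. With arrays raised to 6.5, LGALS1 ranked 4 of 15194 genes. LGALS3 (chromosome 14, 55129252 to 55145430), which encodes galectin-3, a lectin that forms multimers, ranged from 5.54 to 6.17 over the 12 arrays. It averaged 5.81 ± 0.27 in SK-N-MC and 5.97 ± 0.10 in RDES (SD, n = 4), and stayed below 6.5 in every array.

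DCN and LUM are neighbours on chromosome 12, at 91140484 to 91182817 and 91102629 to 91111494. DCN encodes decorin, which binds collagen fibrils and TGF-beta, and LUM encodes lumican, a keratan sulfate proteoglycan of cornea and connective tissue. DCN was at 10.69 and 9.63 in SK-N-MC shCDS, Dox (-) and Dox (+), and at 10.72 and 10.02 in SK-N-MC shUTR. In RDES it was at 5.63 and 6.58 with shCDS and at 7.32 and 5.73 with shUTR. The line means were 10.27 ± 0.53 and 6.32 ± 0.80 (SD, n = 4), a difference of 3.95 and a gap of 2.31 between the nearest arrays. LUM was at 10.06 and 8.37 in SK-N-MC shCDS and at 9.57 and 8.39 in SK-N-MC shUTR. It was at 7.06 and 7.81 in RDES shCDS and at 6.19 and 6.47 in RDES shUTR. The LUM means were 9.10 ± 0.85 and 6.88 ± 0.72, a difference of 2.21, and its lines came within 0.56 of each other. With arrays raised to 6.5, DCN and LUM ranked 84 and 353 of 15194.

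By level in SK-N-MC the order was BGN, LGALS1, DCN and LUM as signals of different probe sets, which cannot be set against each other as amounts of RNA. Lined up by the line difference the order was BGN, LGALS1, DCN and LUM as well. These 4 genes had an adjusted p under 0.05 for the line, 4 of the 4 members that passed the filter, where 45.3% of all 15194 genes did. The filter, a mean of 6.5 over the 6 Dox (-) arrays, was met through SK-N-MC and shCtrl arrays for BGN and LGALS1, which were below 6.5 on every RDES shPRC1 array. DCN, with a mean of 6.48 over the RDES shPRC1 Dox (-) arrays, also needed the other arrays to pass. In these bulk samples, fewer cells that express a gene and less RNA of it per cell cannot be told apart.

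The other 5 members did not pass the filter, with line means at most 0.54 log2 units apart. OGN and ASPN lie near each other on chromosome 9, and FMOD and PRELP near each other on chromosome 1. OGN (osteoglycin, of bone and vessel walls) averaged 6.40 ± 0.23 and 6.07 ± 0.12, and reached 6.5 on 4 of 12 arrays, up to 6.85. ASPN (asporin, of cartilage and periodontal ligament) averaged 5.63 ± 0.18 and 5.09 ± 0.21, with 0.01 between the nearest arrays of the 2 lines. PRELP, a basement membrane-anchoring protein, averaged 6.05 ± 0.34 and 5.67 ± 0.09. FMOD, fibromodulin of tendon and cartilage, averaged 5.34 ± 0.35 and 5.43 ± 0.22 (SD, n = 4 arrays in each case, SK-N-MC first). The ranges of the lines overlapped for PRELP, FMOD and LGALS3 and lay within 0.09 of each other for OGN and ASPN.

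Other members of both families differed less between the lines than BGN, LGALS1, DCN and LUM, with 1 exception. Of 10 other small leucine-rich proteoglycans on the array, 2 passed the filter: OMD, osteomodulin, was at 6.99 ± 0.20 in SK-N-MC and 6.07 ± 0.13 in RDES, and TSKU, tsukushi, at 9.44 ± 0.48 and 10.29 ± 0.42 (SD, n = 4). KERA and EPYC, on the far side of LUM from DCN, were at 5.67 and 5.56 and at 5.65 and 5.47. Of 12 other galectins, 4 passed, and LGALS8, a galectin with a pair of carbohydrate-binding domains, ran opposite to LGALS1: its means were 6.58 ± 0.51 for SK-N-MC and 12.41 ± 0.35 for RDES (SD, n = 4 shPRC1 arrays). On the arrays labelled RDES shCtrl LGALS8 was at 6.24 and 6.32, and on the SK-N-MC shCtrl arrays at 8.48 and 8.95, between the lines. LGALS1 on those arrays, at 13.71 and 13.93, was not between the lines.

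**Figure D2:**
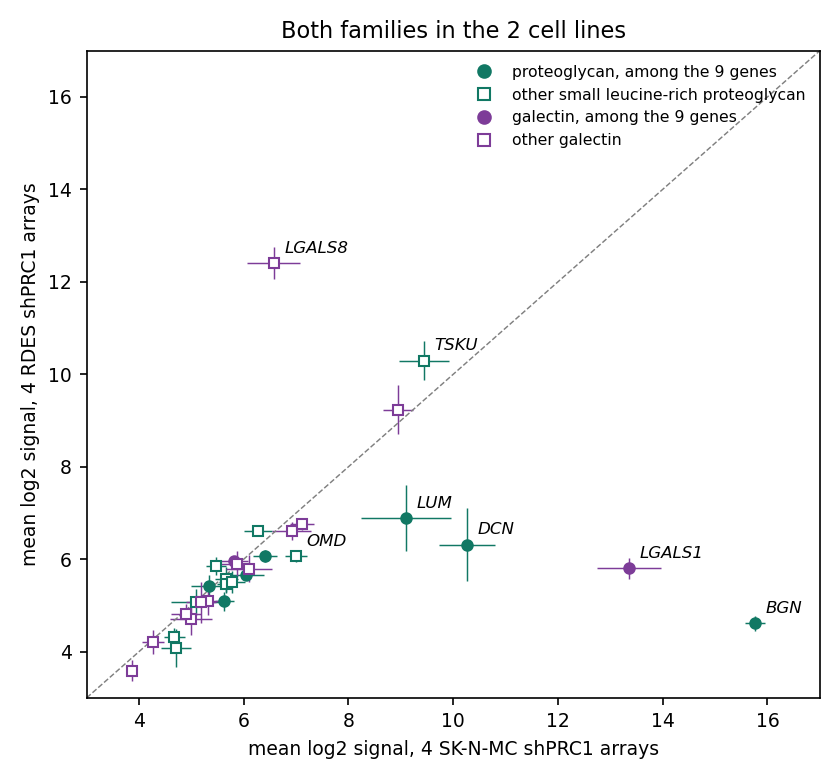
Mean log2 signal over the 4 RDES shPRC1 arrays (y axis) against that over the 4 SK-N-MC shPRC1 arrays (x axis) for every measured small leucine-rich proteoglycan and galectin, with SD as bars and equal levels as the dashed line. BGN (15.77 and 4.61), LGALS1, DCN and LUM lie below the line, and LGALS8 (6.58 and 12.41) above it.

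The genes near BGN and LGALS1 had smaller differences than these 2 genes. Near BGN, ATP2B3, a plasma membrane calcium pump, was at 9.37 in SK-N-MC and 8.20 in RDES, ZNF275 at 9.45 and 7.58, and DUSP9, a MAP kinase phosphatase, at 10.78 and 8.52, beside an excess of at least 9.27 log2 units for BGN against 6.5. Around LGALS1, its relative LGALS2 was at 6.92 and 6.62, CDC42EP1 at 8.94 and 7.84, and GGA1, a Golgi sorting adaptor, at 8.20 and 9.11. Around DCN, LUM was the only 1 of the 6 nearest protein-coding genes shown that lay over 2 log2 units higher in SK-N-MC.

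**Figure D3:**
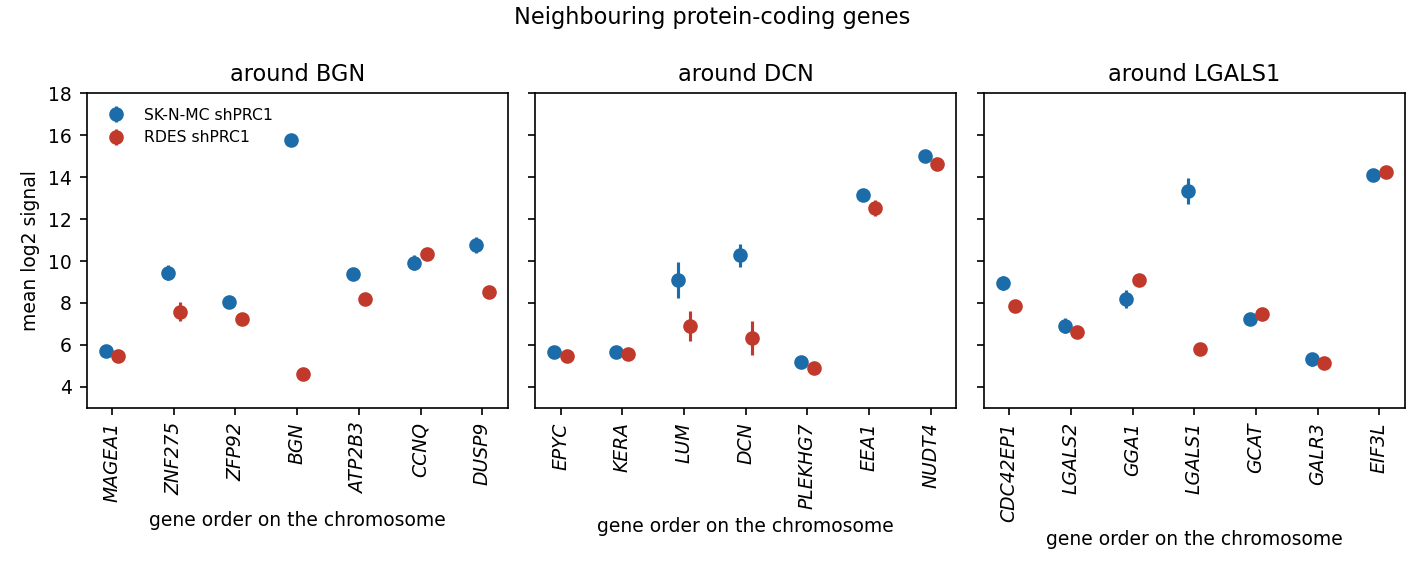
Mean log2 signal with SD (y axis) in SK-N-MC and RDES shPRC1 arrays (n = 4 each) for the 3 protein-coding genes on each side of BGN, DCN and LGALS1, in chromosome order (x axis). The line means are over 2 log2 units apart at BGN, LGALS1, DCN, LUM and DUSP9.

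By profile, centred on its mean over the 12 arrays, the genes nearest to LGALS1 were EPB41L3, a membrane-cytoskeleton linker (root mean square distance 0.585 log2 units), HSPB8, a small heat shock protein (0.671), ARHGAP15 (0.707), LMO7 (0.792) and LOC100507412 (0.859). LGALS1 was the second nearest to BGN, at 1.56, after LOC100507412 at 1.55, and HSPB8 followed at 1.82, then EPB41L3 and, at 2.03, ARHGAP15. LUM was number 24 for DCN, at 0.967. The distance was not scaled, so it depends on the size of the line difference, which helped to choose BGN and LGALS1. The 5 genes nearest to BGN came in the order of that difference, from 7.76 (LOC100507412) to 6.37 (ARHGAP15). These are descriptions over 12 arrays, the shCtrl arrays among them, that share 2 cell lines, and no separate likeness is read from them.

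On the 4 shCtrl arrays, BGN and LGALS1 lay far above the RDES level, and DCN and LUM lay above every SK-N-MC shPRC1 array. BGN was at 15.51 and 15.66 on the SK-N-MC shCtrl arrays and at 15.59 and 15.67 on the arrays labelled RDES shCtrl. LGALS1 was at 13.71, 13.93, 14.25 and 14.32 in the same order. DCN was at 11.98 and 11.45, and at 12.86 and 12.29 on the arrays labelled RDES shCtrl. All 4 lay above all 4 SK-N-MC shPRC1 arrays, by 0.73 at the nearest and by 1.27 among Dox (-) arrays alone. LUM was at 11.39 and 11.15, and at 11.93 and 11.47, above the SK-N-MC shPRC1 arrays by 1.08 at the nearest and 1.33 among Dox (-) arrays. So 2 of the 4 members at 6.5 over these 8 arrays had all shCtrl arrays above all SK-N-MC shPRC1 arrays, where 7.81% of 15125 genes did. The excess was there before Dox: the Dox (-) means were 12.42 and 10.70 for DCN, and 11.66 and 9.82 for LUM.

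With Dox, LGALS1 and LUM were lower in both SK-N-MC PRC1 hairpin lines, and BGN moved little. LGALS1 differed by -0.81 with shCDS and -1.27 with shUTR, leaving 57.0% and 41.6% of the Dox (-) signal, whereas the shCtrl pairs differed by 0.22 (SK-N-MC) and 0.07 (labelled RDES). LUM differed by -1.70 and -1.17, leaving 30.8% and 44.4%, against -0.24 and -0.46 in the shCtrl pairs. Both genes were lower in each PRC1 hairpin pair of SK-N-MC than in either control pair. DCN differed by -1.06 and -0.69, but also by -0.54 and -0.57 in the control pairs. With the SK-N-MC shCtrl difference subtracted, the mean of both hairpins was -1.26 for LGALS1, -1.19 for LUM, -0.34 for DCN and -0.36 for BGN, and without subtraction -1.04, -1.43, -0.88 and -0.22.

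In RDES, LUM had a mean of 6.63 over the Dox (-) shPRC1 arrays, just above 6.5, and DCN of 6.48, just below it. LUM differed with Dox by 0.75 with shCDS, from 7.06 to 7.81. With shUTR both LUM arrays were below 6.5, as were all RDES shPRC1 arrays for BGN and LGALS1, and no direction is read from these. DCN was at 5.63 and 6.58 with shCDS, Dox (-) below 6.5, and differed by -1.60 with shUTR, from 7.32 to 5.73, below 6.5 with Dox.

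Counting members at 6.5 or more in the Dox (-) array that were at least 1 log2 unit lower with Dox gave 2 of 5 in SK-N-MC shCDS (DCN and LUM), where 1.61% of all such genes were, and 2 of 4 in SK-N-MC shUTR (LUM and LGALS1), where 3.18% were. It gave 0 of 4 in SK-N-MC shCtrl (0.652% of genes) and 0 of 5 in the pair labelled RDES shCtrl (0.125%). It gave 0 of 1 in RDES shCDS (4.08%) and 1 of 1 in RDES shUTR (0.333%), the latter DCN. The median over the members was -0.81 in SK-N-MC shCDS and -0.93 in SK-N-MC shUTR, beside medians over all such genes of 0.06 and -0.17.

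**Figure D4:**
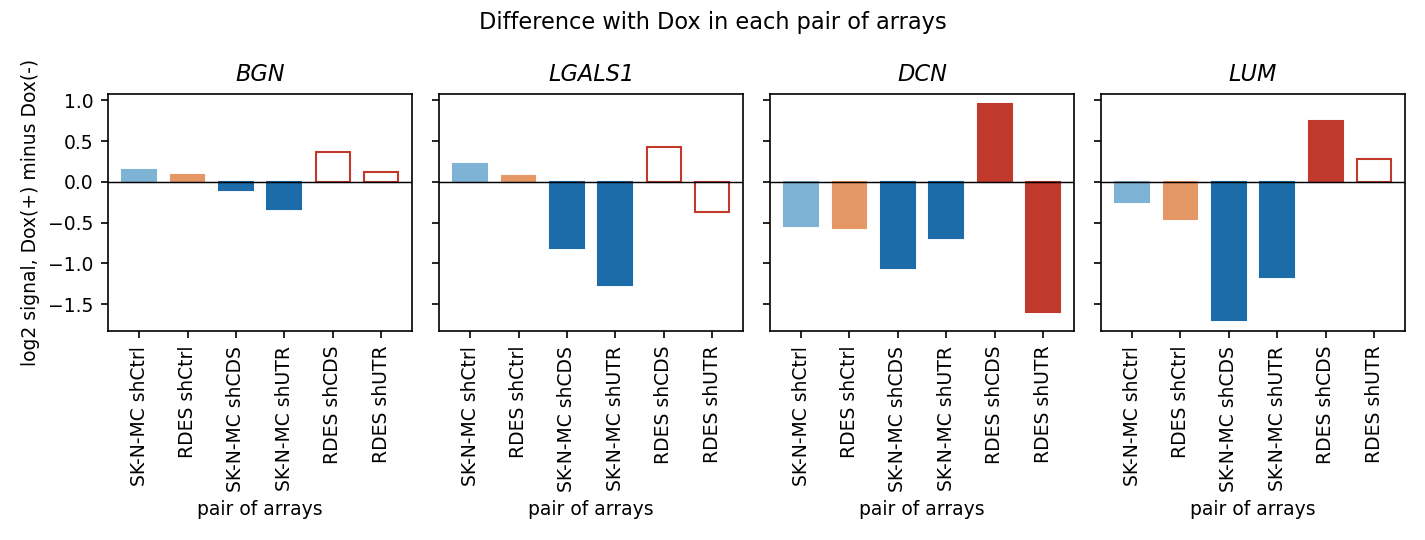
Dox (+) minus Dox (-) log2 signal (y axis) of BGN, LGALS1, DCN and LUM in the 6 pairs of arrays (x axis), 1 difference per bar and so no error. Open bars have both arrays below 6.5. LGALS1 and LUM have their lowest bars in the SK-N-MC shCDS and shUTR pairs, and DCN is below 0 in 5 of 6 pairs.

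Averaged over all 4 shPRC1 lines, the Dox difference minus that of the shCtrl pairs was -0.65 for LGALS1, -0.11 for LUM, -0.05 for DCN and -0.10 for BGN, and without subtraction -0.50, -0.46, -0.60 and 0.014. For BGN and LGALS1 the RDES part of this average comes from arrays below 6.5, so it gives no measured change over both lines. The limma fit called 0 of 4 members and 0% of the 15194 genes (400 genes, and 0 members, had an unadjusted p under 0.05). PRC1 itself was thus not called. With the shCtrl pair subtracted it differed by -3.90 and -2.81 in SK-N-MC (shCDS, shUTR) and by -3.93 and -1.43 in RDES. The fit could therefore miss a large change, and no absence of change in the members is read from it. The Dox difference of LUM was 1.95 higher in RDES than in SK-N-MC (SE 0.45), with both RDES shUTR arrays below 6.5. The fit of that contrast called 1 of 4 members, LUM, and 0.0856% of genes. It has 1 residual degree of freedom and gave all genes the same SE, and it called 0 members with a trended, robust variance and 0 with centred arrays.

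The 2 PRC1 hairpins were compared with each other, a contrast that had no part in choosing the genes. The difference shUTR minus shCDS over the 8 shPRC1 arrays was 0.11 for BGN (SE 0.17, limma adjusted p = 0.873), 0.31 for DCN (SE 0.33, adjusted p = 0.796), -0.01 for LGALS1 (SE 0.24, adjusted p = 0.996) and -0.67 for LUM (SE 0.36, adjusted p = 0.614). For BGN and LGALS1 every RDES array in this contrast was below 6.5, so their values give no measured hairpin comparison in RDES. With 1 derivative line left out, the LUM value was -0.24 (without RDES shCDS or RDES shUTR) or -1.10 (without SK-N-MC shCDS or SK-N-MC shUTR). By limma 0 of 4 members passed, and 0% of all genes did, while 1314 genes and 0 members had an unadjusted p under 0.05. The Dox difference was also compared between hairpins, and unlike the contrast above it uses differences with Dox, which helped to choose the genes. For DCN it was -1.09 (SE 0.45, limma adjusted p = 0.952), and 0 of 4 members were called, where 0.105% of genes were. This DCN value came from RDES, with Dox differences of 0.95 (shCDS) and -1.60 (shUTR) on arrays from 5.63 to 7.32, around 6.5. In SK-N-MC the order was the opposite, -1.06 with shCDS and -0.69 with shUTR, so no hairpin effect on DCN is read from it.

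The genes that the proteoglycans and galectins work with went both ways between the lines, as did all genes: of 15194, 45.3% were called, 3913 lower and 2974 higher in RDES, with a median RDES minus SK-N-MC difference of -0.09. Of receptors and growth factor ligands of the proteoglycans, 5 of 9 tested were lower in RDES and 1 higher (median -1.02), by limma adjusted p under 0.05. TGFB1, bound by biglycan and decorin, was at 11.63 in SK-N-MC and 9.24 in RDES, MET at 8.37 and 6.42, and LRP6, a Wnt co-receptor, at 11.03 and 14.34. Of the enzymes that build chondroitin and dermatan sulfate, 4 of 16 were lower in RDES and 2 higher (median -0.14). UST, a uronyl sulfotransferase, was at 10.60 and 6.79, and XYLT1, which starts the chains, at 7.05 and 8.42. Of 5 keratan sulfate enzymes 1 was lower and 1 higher (median -0.20). Of proteases and their partners that cut or act beside these proteoglycans, 4 of 6 were lower and 1 higher (median -1.03), with PCOLCE, the procollagen C-proteinase enhancer, at 12.87 and 8.56 and the aggrecanase ADAMTS4 at 11.31 and 9.28.

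Of 11 fibrillar collagens and partners tested, 5 were lower in RDES and 1 higher (median -0.23), beside the 45.3% of all genes called in either direction, with TNC, tenascin-C, at 9.19 and 5.57. COL11A1, which did not pass the filter, was at 4.90 in SK-N-MC and 9.29 in RDES. Of 12 other proteoglycans 4 were lower and 2 higher (median -0.14), with the glypican GPC4 at 10.78 and 6.63 and perlecan, HSPG2, at 7.13 and 9.24. Of 12 glycoprotein ligands of galectin-1 and galectin-3, 4 were lower and 2 higher (median -0.06), and of 8 enzymes that shape the N-glycans galectins bind, 3 were lower and 3 higher (median -0.15). These counts are small and nothing particular to a list is read from them. FUT8, the core fucosyltransferase, was at 13.45 and 9.13, and MAN2A1, a Golgi mannosidase, at 8.13 and 11.88. In the hairpin, silencing and Dox tests 0 genes of any of these lists were called. Of all genes, 0% were called for the hairpin and for silencing. For the Dox difference 0.0856% were called between lines and 0.105% between hairpins. With shares this low, nothing about the lists is read from it.

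Some markers of other cell types were also lower in RDES, beside the 45.3% of all genes called for the line. Ewing sarcoma markers mostly went the other way: of 8 tested, 5 were higher in RDES and 1 lower (median RDES minus SK-N-MC difference 0.71). Of 9 fibroblast markers on the array, 7 were at 6.5 or more in SK-N-MC and 6 in RDES, 5 of 7 tested were lower in RDES and 0 higher, and their mean level ran from 8.74 to 9.16 on the SK-N-MC and from 7.77 to 8.11 on the RDES shPRC1 arrays. FAP was at 8.64 and 5.66, TWIST1 at 9.47 and 6.71 and PRRX1 at 10.89 and 8.34, while COL1A1 was at 9.90 and 9.91. THY1 was at 13.22 and 13.17, and PDGFRA, with both line means below 6.5, at 5.48 and 6.19. Of the epithelial markers KRT18 was at 11.81 and 8.24 and KRT8 at 9.07 and 7.99, both tested and lower, while EPCAM and CDH1 were below 6.5 in both lines. Of the endothelial markers 1 of 2 tested was lower, EMCN at 10.92 and 9.16, and PECAM1 and CDH5 were below 6.5. Of the cartilage and bone markers 1 was tested, ALPL at 7.16 and 5.39, and was lower, while SOX9 and ACAN were below 6.5. None of 6 haematopoietic markers passed the filter. The part of these markers in the differences of BGN, LGALS1, DCN and LUM was not tested.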

How the data were processed

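RNA of 12 cultures was measured on Affymetrix Clariom D arrays. The authors deposited log2 values, which per the methods of the study were made with SST-RMA in Transcriptome Analysis Console. The submitters' processing notes name Expression Console 1.4 and hg38 instead, so the software behind the deposited values is uncertain. The values ran from 2.03 to 19.75. Whether such values compress or stretch differences, near background or elsewhere, was not tested. No depth applies: the number of arrays limits precision.

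Of 135750 probe sets, 36176 had 1 gene symbol, 1119 several and 98455 none. After 623 symbols were updated, the brightest probe set stood for each of 33458 genes. Genes with a mean of 6.5 over the 6 Dox (-) arrays (15194) were fitted with limma 3.58.1 (R 4.3.3) with Benjamini-Hochberg adjustment over all of them, at 0.05. The line and silencing fits were tested on simulated data. In the line and hairpin fits each shPRC1 array counted as a replicate, with 4 residual degrees of freedom. The Dox (-) and Dox (+) arrays of a derivative line were thus treated as independent. The errors and p-values of these fits may therefore be too small. In the fits of Dox differences, derivative lines served as replicates. Nothing states that derivative lines are independent, so p-values measure only the spread between these arrays.

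Named besides the members were, from each of 10 lists, up to 4 genes by line difference and up to 2 by Dox difference, plus the 5 nearest profiles of BGN and LGALS1. The neighbouring genes, cell type markers, STAG2, KERA and EPYC were chosen besides this rule. Members and lists were chosen with earlier results of these data known. Filters, variance models, centring, probe set averaging, array choice and leaving out lines were tried as alternatives.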

Additional observations from a re-analysis of the deposited data

Results flagged for a closer look

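OGN was at 6.74 on the SK-N-MC shCDS Dox (-) array, apart from the other SK-N-MC shPRC1 arrays at 6.25 to 6.31, a sample far from the others among 18 groups of 4 arrays examined, of which chance alone flags about 1 in 20. The Dox difference of LUM was 1.95 log2 units higher in RDES than in SK-N-MC shPRC1 lines, a difference between groups by limma with 1 residual degree of freedom. Both RDES shUTR arrays of LUM lay below 6.5, and differences with Dox helped to choose the genes, so the value is a description.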

How the results depend on the processing

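The 4 members called for the line stayed 4 in number under every other setting run but 2: 5 with no filter and 2 with the 12 arrays as labelled, where DCN was at -2.35 and LUM at -1.33 (RDES minus SK-N-MC) and missed the threshold, and where 2289 genes were called against 6887. Leaving out each derivative line gave 4 to 4 members, and without SK-N-MC shCDS the genes called were 4452. The 1 member called for the Dox difference between lines, LUM, became 0 with a trended, robust variance (1.95, adjusted p = 0.664) and 0 with centred arrays (1.76, adjusted p = 0.305, limma), and the genes called fell from 13 to 5 and 1. For the Dox difference between hairpins, genes called were 16, and 31 with no filter, 3 with the trended variance and 2 with centring. For the hairpin difference, 0 genes were called with all lines and 6 to 56 without 1 of them, with 0 members throughout. Small differences changed sign. The silencing difference of BGN (-0.10) was 0.014 with no shCtrl subtraction and ran from -0.36 to 0.16 (without SK-N-MC shCtrl) with each line left out. That of DCN (-0.05) was 0.024 with centring and ran from -0.63 to 0.46, above 0 without SK-N-MC shCDS (0.074), SK-N-MC shCtrl (0.25) or RDES shUTR (0.46). That of LUM (-0.11) ran from -1.19 to 0.97, above 0 without SK-N-MC shCtrl (0.97) or SK-N-MC shCDS (0.16). That of LGALS1 (-0.65) ran from -1.26 (without the line labelled RDES shCtrl) to -0.044 (without SK-N-MC shCtrl). The hairpin difference of LGALS1 (-0.01) was 0.068 with centring and ran from -0.061 to 0.049, above 0 without either SK-N-MC hairpin line, and the Dox difference of LUM between hairpins (0.03) was -0.0086 with centring. For the silencing difference 0 genes were called, and 1 without SK-N-MC shCDS or RDES shUTR. The causes were not tested. Other probe sets gave no value because each member has 1, and leaving out a line left the Dox comparisons between lines or hairpins no residual degree of freedom, so these were not run. The Dox differences were taken within each derivative line and are paired in that way. The line and hairpin fits did not pair arrays by derivative line. Pairing by replicate number was not possible because all samples carry the same one.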
